A study of Penicillium oxalicum with 9 samples.

Results

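A stretch of 35 neighbouring genes of the filamentous fungus Penicillium oxalicum, POX_h09422 to POX_h09456, was examined in all 9 RNA-sequencing libraries of the study, out of 11082 features listed in each library. The stretch was chosen because 3 of its genes, POX_h09436, POX_h09439 and POX_h09441, had been described as nearly silent in the background strain and high in both deletion mutants. The mutant and background values of the stretch are therefore given as a description without a test. Of the 3 genes, POX_h09441 was not nearly silent in all background libraries, as its values below show. The direct comparison of the mutants was not used for the choice, and it was tested. The 35 identifiers are consecutive protein-coding genes on chromosome VIII in the RefSeq annotation of strain HP7-1, assembly ASM172317v3, where they are the 43rd to the 77th of 522. Of the 35 genes, 34 were above 0 in at least 1 library and entered the test, and POX_h09442 was listed at 0 in all 9 libraries.

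All 3 strains derive from strain HP7-1 and lack ku70, whose product works in non-homologous end joining and whose loss eases targeted gene replacement. The background strain, labelled PoxKu70 and called Δku70 below, carries the hygromycin marker hph. The mutant called ΔcxrA lacks the transcription factor gene cxrA (POX_a00763, labelled PoxCxrA). The mutant called Δprmt3 is labelled POX03070. It was taken as the deletion of POX_b03080, prmt3, from the study's description and from the values of that gene near 0 in these libraries. Both mutants also carry a G418 resistance marker that Δku70 does not, so an effect of that marker cannot be told apart from an effect of a deletion shared by both. Each strain was grown for 24 h at 28 °C on 1% glucose and then for 24 h on 2% Avicel, a microcrystalline cellulose, and gave 3 libraries from mycelium.

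CxrA is a zinc-binuclear-cluster protein, a class of DNA-binding regulator common in fungi, and it controls cellulase and xylanase genes. PRMT3 is a protein arginine methyltransferase, an enzyme that places methyl groups on arginine residues of other proteins. In filamentous fungi, genes that lie next to each other are in some regions switched on and off together, as in gene clusters for secondary metabolites. The sources used here give a function for only 1 of the 35 genes, POX_h09449, a bZIP transcription factor, a class that binds DNA as dimers through a basic region next to a leucine zipper. No function is known here for the other genes of the stretch.

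Levels are FPKM, which corrects fragment counts for exon length and for the size of the library and so allows a comparison between genes. For comparisons between strains the FPKM of each library was scaled by the median of ratios, and differences are given on the scale of log2(scaled FPKM + 0.1). That pseudocount shrinks the differences of genes with low values. The sums of FPKM per library lay between 1036054 and 1096738, and 9335 features were above 0 in every library. With the scaling left out, the median log2 difference over annotated genes moved by 0.56 for ΔcxrA minus Δprmt3, by 0.40 for ΔcxrA minus Δku70 and by -0.14 for Δprmt3 minus Δku70. The deleted gene POX_a00763 behaved as labelled, with 116, 121 and 90.7 FPKM in Δku70 and 0 in all ΔcxrA libraries. POX_b03080 had 33.4, 24.9 and 29.1 FPKM in Δku70 and 0, 0.04 and 0 in Δprmt3. The values of POX_b03080 helped to match the label to the gene, so they are no separate check of it. The cells are labelled mycelium, yet 3 of 3 regulators of conidiation (brlA, abaA and flbD, which direct asexual spore formation) were above 0 in every strain. Their summed level was 284 to 340 FPKM in Δku70, 51.3 to 82.9 in Δprmt3 and 33.8 to 39.5 in ΔcxrA. This sum was thus lower in both mutants, in which the genes described next were higher. The 3 did not move alike: brlA and flbD were lower in both mutants than in Δku70, whereas abaA had 12.6, 14.5 and 12.8 FPKM in Δku70, 5.57, 3.93 and 4.22 in Δprmt3 and 25.7, 22.2 and 21.7 in ΔcxrA. The part of these markers in the result was not tested. In such bulk samples, fewer cells of a kind and less RNA per cell cannot be told apart.

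The shared rise spanned 7 consecutive genes, POX_h09435 to POX_h09441, and no other gene of the stretch met its criterion. A gene met it where the log2 difference from Δku70 was over 1 in both mutants and all 6 mutant libraries lay above all 3 Δku70 libraries. Among all 10578 features tested, 1.57% met it, and since the stretch was chosen on these values nothing is read from the comparison of the 2 shares. No other annotated gene of RefSeq lies between the first and the last of the 7. All 7 were higher in Δprmt3 and all 7 in ΔcxrA, and both comparisons used the same Δku70 libraries.

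**Figure D1:**
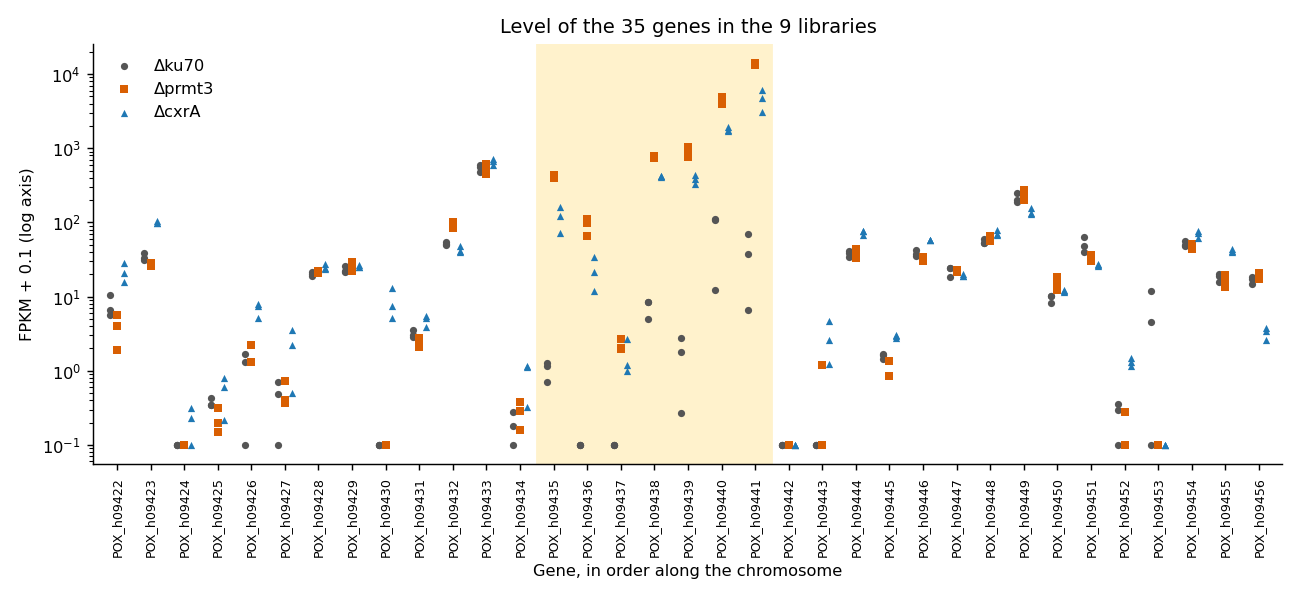
FPKM + 0.1 on a log axis for the 35 genes in order along the chromosome, with 3 points per strain (1 per library) and the 7 genes of the shared rise shaded. A point at 0.1 is a value of 0. The mutants stand above Δku70 in all 7 shaded genes, and no gene outside the shading met the criterion of the shared rise.

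The first gene of the run, POX_h09435, was near 1 FPKM in Δku70 and above 70 FPKM in every mutant library. It had 0.61, 1.07 and 1.19 FPKM in Δku70, 432, 426 and 401 in Δprmt3, and 160, 124 and 73.0 in ΔcxrA. The groups did not overlap, and the log2 difference from Δku70 was 8.85 in Δprmt3 and 6.39 in ΔcxrA. Within ΔcxrA its highest library was 2.19 times its lowest, against 1.08 times in Δprmt3.

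The next gene, POX_h09436, was listed at 0 in all 3 Δku70 libraries. Its FPKM was 111, 99.5 and 64.9 in Δprmt3 and 34.4, 21.5 and 11.7 in ΔcxrA. POX_h09437 was also listed at 0 in all 3 Δku70 libraries, but it reached only 1.87, 1.94 and 2.58 FPKM in Δprmt3 and 1.09, 2.56 and 0.89 in ΔcxrA. It thus met the criterion at a level far below that of its neighbours on either side. No fold change from Δku70 is given for this pair, because a listed 0 sets no level to divide by.

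POX_h09438 varied little between the replicates of each mutant. Its FPKM was 4.96, 8.24 and 8.39 in Δku70, 733, 785 and 747 in Δprmt3, and 426, 424 and 407 in ΔcxrA. Every mutant library was thus far above every background library, with log2 differences of 6.89 in Δprmt3 and 5.47 in ΔcxrA.

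POX_h09439, the next gene, had 0.17, 1.69 and 2.71 FPKM in Δku70, 1049, 910 and 766 in Δprmt3, and 443, 383 and 333 in ΔcxrA. POX_h09440 had 12.1, 112 and 108 FPKM in Δku70, 3949, 4875 and 4653 in Δprmt3, and 1943, 1787 and 1727 in ΔcxrA. Of the 5 run genes with values above 0 in Δku70, POX_h09440 was the only one over 100 FPKM in any Δku70 library. It was not silent there, and among the 9822 annotated genes it ranked 6752nd, 1430th and 1610th in the Δku70 libraries.

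POX_h09441, at the end of the run, had the highest level of the 7 in both mutants. Its FPKM was 6.53, 70.1 and 37.1 in Δku70, 14080, 13606 and 13438 in Δprmt3, and 6065, 4795 and 3110 in ΔcxrA. Among the 9822 annotated genes it ranked 4th, 6th and 4th in the Δprmt3 libraries, 10th, 14th and 26th in the ΔcxrA libraries, and 7447th, 2282nd and 4021st in the Δku70 libraries. Its log2 difference from Δku70 was 9.21 in Δprmt3 and 7.03 in ΔcxrA, and those of POX_h09439 were 9.84 and 8.04. POX_h09440, which started from a higher level, differed by 6.56 and 4.69.

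**Figure D2:**
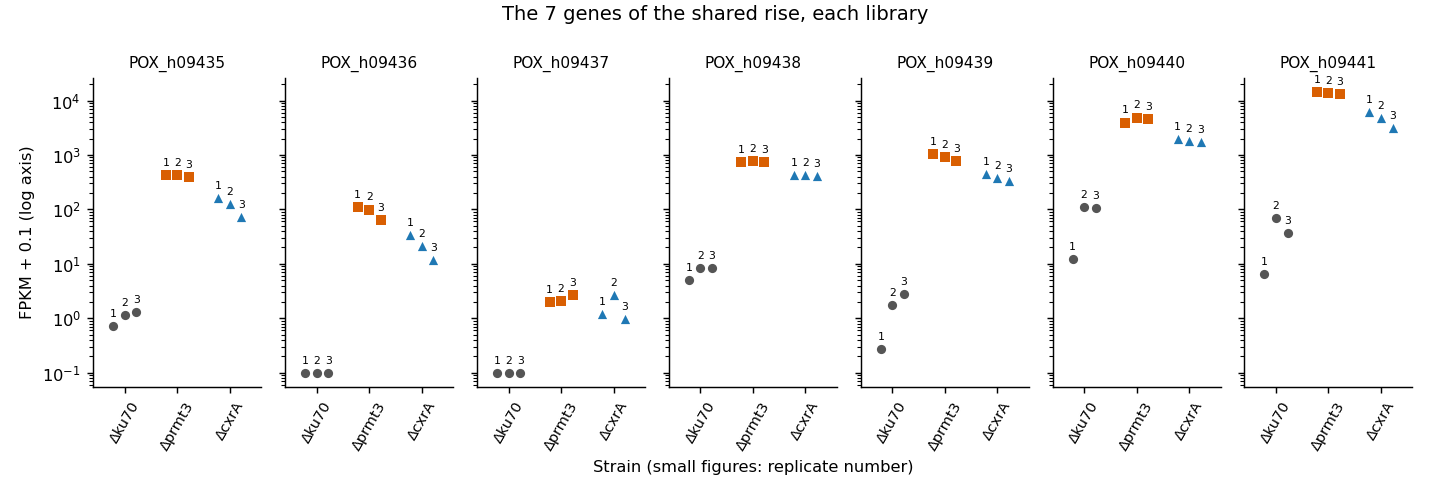
FPKM + 0.1 on a log axis for each of the 7 genes of the shared rise, with 1 point per library and its replicate number above the point. In all 5 genes above 0 in Δku70, replicate 1 is the lowest Δku70 library, and in all 7 genes replicate 3 is the lowest ΔcxrA library.

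The Δku70 libraries lay far apart in the last 3 genes. Replicate 1 lay below both others in all 5 run genes with values above 0 in that strain, and the highest Δku70 library was 15.9 times the lowest for POX_h09439, 9.23 times for POX_h09440 and 10.7 times for POX_h09441. For POX_h09435 and POX_h09438 the same ratio was 1.95 and 1.69. Among 8469 annotated genes with a mean of at least 1 FPKM in Δku70, replicate 1 was under 1/3 of both other libraries in 39, whereas the same held for replicate 2 in 31 and for replicate 3 in 67. Of the 39 genes, 9 met the criterion of the shared rise, which 99 of the 8469 met, and 4 were in the stretch. Leaving replicate 1 out lowered the log2 difference of Δprmt3 from Δku70 to 8.81 for POX_h09439, 5.50 for POX_h09440 and 8.22 for POX_h09441, and that of ΔcxrA to 7.0, 3.63 and 6.04. The highest Δku70 library was 0.261% of the Δprmt3 mean for POX_h09439, 2.3% for POX_h09440 and 0.474% for POX_h09441. Of the ΔcxrA mean it was 0.912%, 8.47% and 2.08%.

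The 7 genes together took a large share of the measured transcript level in the mutants. They held 0.00226%, 0.0186% and 0.0143% of the summed FPKM of the Δku70 libraries, 1.94%, 1.93% and 1.87% of the Δprmt3 libraries, and 0.836%, 0.714% and 0.526% of the ΔcxrA libraries. The 3 strains did not overlap. POX_h09441 alone made up 65.7% to 69.2% of the sum of the 7 in Δprmt3 and 54.9% to 66.9% in ΔcxrA. The other 28 genes of the stretch held between 0.104% and 0.135% in every library.

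**Figure D3:**
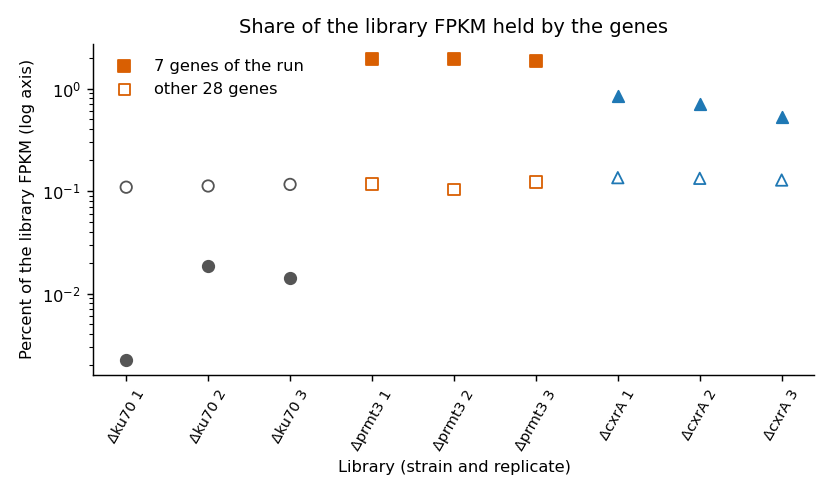
Percent of the summed FPKM of each library, on a log axis, held by the 7 genes of the shared rise (filled) and by the other 28 genes of the stretch (open), for 3 libraries of each strain. The filled points lie between 1.87% and 1.94% in Δprmt3 and between 0.526% and 0.836% in ΔcxrA, while the open points stay between 0.104% and 0.135%.

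The genes next to the run were at or near 0 on both sides. Just before it, POX_h09434 was close to 0 in all strains, with 0.18, 0 and 0.08 FPKM in Δku70, 0.19, 0.06 and 0.28 in Δprmt3, and 1.05, 0.23 and 1.03 in ΔcxrA. The libraries of Δku70 and Δprmt3 overlapped. Those of ΔcxrA lay above Δku70 in unscaled FPKM, by little (0.23 against 0.18), and overlapped with Δku70 after scaling. Its log2 difference from Δku70 was 0.73 in Δprmt3 and 1.84 in ΔcxrA. One gene further out, POX_h09433 was highly expressed in every strain, with 553, 474 and 594 FPKM in Δku70, 511, 453 and 611 in Δprmt3, and 712, 664 and 590 in ΔcxrA. Its log2 difference from Δku70 was 0.11 in Δprmt3 and -0.13 in ΔcxrA. A gene at a high level in all 3 strains thus lay within 2 genes of the start of the run.

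After the run, POX_h09442 was listed at 0 in all 9 libraries, next to the gene with the highest level of the stretch. POX_h09443 was listed at 0 in the 3 Δku70 libraries, at 1.11, 0 and 0 FPKM in Δprmt3 and at 1.12, 2.51 and 4.54 in ΔcxrA, so it was above 0 in all libraries of ΔcxrA and in only 1 of Δprmt3. The gene after it, POX_h09444, had 32.6 to 43.2 FPKM across Δku70 and Δprmt3 and 67.0 to 77.8 in ΔcxrA. The start and the end of the run stayed at POX_h09435 and POX_h09441 with a log2 threshold of 2 in place of 1, and with non-overlap of the libraries as the only criterion.

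Runs of the same kind were counted over the annotated genome as a description, from which nothing is read, because the stretch was chosen on these values. The criterion was met by 147 of 9363 annotated genes tested, and these fell into 126 runs of consecutive identifiers. Single genes made up 114 of the runs, 8 runs had 2 genes, 2 had 3 genes, 1 had 4 genes (POX_f07574 to POX_f07577), and the run of 7 was the one described here. A log2 difference over 4 in both mutants was reached by 17 annotated genes, of which 6 were genes of the run, all but POX_h09437, counting the fitted value of POX_h09436, which was listed at 0 in Δku70. In the 35 identifiers before the stretch, 1 of 31 genes tested met the criterion, POX_h09413, with log2 differences of 2.76 in Δprmt3 and 1.67 in ΔcxrA. In the 35 after it, 0 of 30 met it. The median log2 difference from Δku70 was 8.85 in Δprmt3 and 6.39 in ΔcxrA over the 5 genes of the run above 0 in Δku70. Over the other genes of the stretch it was 0.11 and 0.20, and over all features tested 0.00 and 0.06.

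The direct comparison of the mutants asked whether the 7 genes reached the same level without PRMT3 and without CxrA. By this comparison 5 of the 7 were lower in ΔcxrA than in Δprmt3 by limma, at an adjusted p under 0.05 over all features and a log2 difference over 1, and none was higher. Of all features tested, 29.8% passed these thresholds in either direction and 12.2% were lower in ΔcxrA. The scaled level in ΔcxrA was 16.5% of that in Δprmt3 for POX_h09436, 19.0% for POX_h09435, 22.8% for POX_h09441, 27.2% for POX_h09440, 28.6% for POX_h09439, 37.3% for POX_h09438 and 48.0% for POX_h09437. Without the scaling these shares were 24.6% to 71.0%. In FPKM, every ΔcxrA library lay below every Δprmt3 library in 6 of the 7 genes, and POX_h09437 was the exception. No share of all features without such overlap is given beside this count, so nothing is read from it.

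**Figure D4:**
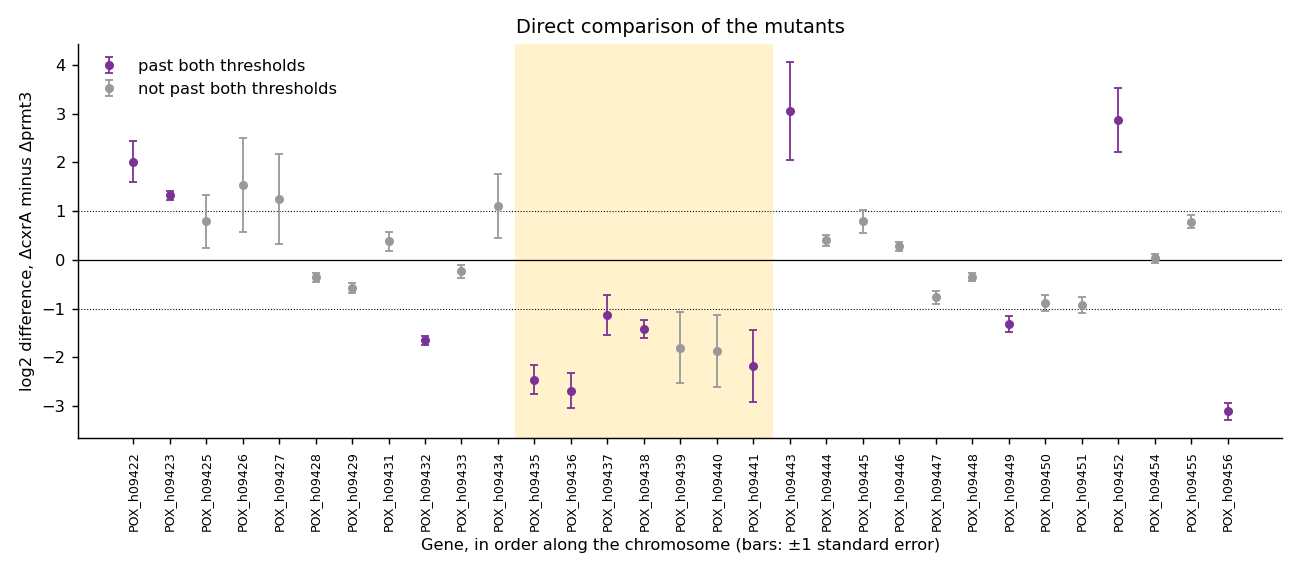
Log2 difference of ΔcxrA minus Δprmt3 for the genes of the stretch with values above 0 in both mutants, in order along the chromosome, with bars of 1 standard error from the limma fit of 9 libraries. Purple points passed an adjusted p of 0.05 and a log2 difference of 1 (dotted lines); all 7 genes of the shaded run lie below -1, and the differences on both sides of it go either way.

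For 3 genes of the run the call held whichever library was left out. The log2 difference of ΔcxrA minus Δprmt3 was -2.46 ± 0.30 (SE, n = 3 each) for POX_h09435 (limma adjusted p = 0.00016), -2.69 ± 0.36 for POX_h09436 (limma adjusted p = 0.00027) and -1.42 ± 0.19 for POX_h09438 (limma adjusted p = 0.00024). Without the scaling they were -1.89, -2.12 and -0.85, so that POX_h09438 no longer passed the log2 threshold.

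The calls at the end of the run depended on the settings. POX_h09441 fell by 2.18 ± 0.74 on the log2 scale (limma adjusted p = 0.031), while POX_h09439 at -1.80 ± 0.73 (limma adjusted p = 0.061) and POX_h09440 at -1.87 ± 0.74 (limma adjusted p = 0.056) did not pass. The spread in this fit came from all 3 strains, including the Δku70 libraries that disagreed in these genes. In a fit of the 6 mutant libraries alone the differences were the same, and limma adjusted p was 0.00027 for POX_h09439, 0.00022 for POX_h09440 and 0.0015 for POX_h09441. Without Δku70 replicate 1 it was 0.00015, 2.6e-05 and 0.00089. POX_h09441 lost its call under 8 of 17 other settings, with a log2 difference of -1.61 without the scaling (limma adjusted p = 0.08), -0.75 after quantile normalization (limma adjusted p = 0.43), and -1.92 to -2.38 with any 1 of the 6 mutant libraries left out (limma adjusted p = 0.063 to 0.1). POX_h09437, at 0.89 to 2.58 FPKM in the mutants, differed by -1.13 ± 0.41 (limma adjusted p = 0.042), and lost the call under 12 of 17 other settings. With any Δprmt3 library left out, or ΔcxrA replicate 1 or 3, 3 of the 7 genes passed. With any 1 of the Δku70 libraries left out, 6 did.

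Ratios of 2 genes within a library do not depend on the scaling of libraries, and they were taken to POX_h09438. POX_h09441 had 19.2, 17.3 and 18.0 times the FPKM of POX_h09438 in the Δprmt3 libraries and 14.2, 11.3 and 7.64 times in the ΔcxrA libraries. For POX_h09435 the ratio was 0.589, 0.542 and 0.537 in Δprmt3 and 0.376, 0.292 and 0.179 in ΔcxrA. For POX_h09440 it was 5.39, 6.21 and 6.23 in Δprmt3 and 4.56, 4.21 and 4.25 in ΔcxrA. The mutants did not overlap in these 3 ratios or in that of POX_h09436, each with an exact two-sided permutation p of 0.1, the smallest that 3 against 3 libraries allow, and an adjusted p of 0.15 over the 6 ratios. The ratios of POX_h09437 and POX_h09439 overlapped between the mutants (exact permutation p = 0.8 and 0.2). This set of ratios was chosen after the data had been seen. The scaled level of POX_h09438 in ΔcxrA was 37.3% of that in Δprmt3. For POX_h09435, POX_h09436 and POX_h09439 to POX_h09441 it was 16.5% to 28.6%. With POX_h09438 as the reference, lower ratios of these genes in ΔcxrA were therefore set by the choice.

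Outside the run the stretch held genes of very different levels. Of these 28 genes, 13 were at or above 10 FPKM in all libraries, 10 were under 10 FPKM in all libraries, and 4 were listed at 0 in all Δku70 libraries (POX_h09424, POX_h09430, POX_h09442 and POX_h09443). In Δprmt3 against Δku70, the genes past the thresholds were the 7 of the run, all higher and none lower, beside 11.1% of all features past the thresholds, 3.59% higher and 7.51% lower. In ΔcxrA against Δku70, 13 genes were higher, the 7 of the run and 6 others, beside 16.4% of all features, and 4 were lower, beside 13.2% (29.7% in either direction). Of the 4, POX_h09453 was listed at 0 in all 6 mutant libraries. Its log2 difference was -4.2 in both mutants, and it passed the thresholds only in ΔcxrA. P-values were adjusted for each comparison separately, so this call marks no difference between the mutants. Nothing is read from these counts, since the stretch was chosen on them.

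Between the mutants, 13 of the 34 genes tested passed the thresholds (38.2%, beside 29.8% of all features), the 5 of the run and 8 others. Of the 27 others tested, the share was 29.6%, close to that of all features. In the 35 identifiers before the stretch it was 38.7%, or 12 of 31 genes tested, and in the 35 after it 9 of 30 genes were called. The median log2 difference of ΔcxrA minus Δprmt3 was -1.87 over the run, 0.38 over the other genes of the stretch and 0.07 over all features.

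Of these 8 genes outside the run, 5 were higher in ΔcxrA, a direction in which 17.6% of all features were called. POX_h09423 had 38.5, 31.2 and 33.1 FPKM in Δku70, 28.0, 28.5 and 25.4 in Δprmt3, and 98.7, 99.6 and 105 in ΔcxrA, with a log2 difference between the mutants of 1.32 ± 0.09 (SE, limma adjusted p = 5.4e-06). The 3 strains did not overlap, with Δprmt3 the lowest and ΔcxrA the highest. POX_h09422, next to it at the edge of the stretch, had 1.83, 3.88 and 5.51 FPKM in Δprmt3 and 27.9, 20.6 and 15.4 in ΔcxrA, with 10.3, 6.6 and 5.61 in Δku70 (log2 difference between the mutants 2.01 ± 0.42, limma adjusted p = 0.0033). Here too ΔcxrA was the highest strain, without overlap.

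The other 3 were genes at low levels. POX_h09430 was listed at 0 in all libraries of Δku70 and Δprmt3 and at 5.12, 12.8 and 7.35 FPKM in ΔcxrA (limma adjusted p = 6.9e-06). POX_h09452 had 0, 0.2 and 0.26 FPKM in Δku70, 0, 0.18 and 0 in Δprmt3, and 1.21, 1.4 and 1.06 in ΔcxrA (limma adjusted p = 0.005), and it lost the call under 2 of 16 other settings, quantile normalization and a pseudocount of 1. In both genes, every library of ΔcxrA lay above every other library. POX_h09443, described above, differed by 3.05 ± 1.01 on the log2 scale (limma adjusted p = 0.028) and lost the call under 7 of 17 other settings, including the loss of either Δprmt3 library listed at 0 and of ΔcxrA replicate 2 or 3.

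The remaining 3 were lower in ΔcxrA. POX_h09449, the bZIP transcription factor gene, had 189, 249 and 198 FPKM in Δku70, 226, 201 and 278 in Δprmt3, and 129, 135 and 155 in ΔcxrA. Δku70 and Δprmt3 overlapped, and ΔcxrA lay below both, with a log2 difference between the mutants of -1.32 ± 0.17 (limma adjusted p = 0.00019) that was -0.75 without the scaling. POX_h09456, the last gene of the stretch, had 14.7, 18.2 and 17.3 FPKM in Δku70, 20.7, 17.1 and 19.1 in Δprmt3, and 2.52, 3.3 and 3.7 in ΔcxrA. Its difference between the mutants was -3.11 ± 0.18 (limma adjusted p = 2.6e-06), and as for the bZIP gene ΔcxrA was the strain that stood apart.

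POX_h09432, which lies 3 genes before the run, differed from Δku70 in opposite directions in the mutants. It had 49.2, 51.7 and 54.1 FPKM in Δku70, 100, 91.9 and 84.0 in Δprmt3, and 41.4, 40.1 and 48.8 in ΔcxrA. All Δprmt3 libraries were above, and all ΔcxrA libraries below, the Δku70 libraries. The log2 difference from Δku70 was 0.99 in Δprmt3 and -0.66 in ΔcxrA, just short of the criterion in Δprmt3 and opposite to it in ΔcxrA. Between the mutants it was -1.65 ± 0.09 (limma adjusted p = 2.6e-06).

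The other 20 genes outside the run passed no threshold pair between the mutants, and 19 of them were tested. Their log2 difference was within 1 either way in 16, of which 10 had a limma adjusted p under 0.05, 4 of them higher and 6 lower in ΔcxrA. No share of all features is given beside the 10, and the directions are those after scaling. Of the 6, POX_h09428 and POX_h09448 had higher mean unscaled FPKM in ΔcxrA (24.8 and 72.1) than in Δprmt3 (21.5 and 61.9). The others of the 10 kept their direction in mean unscaled FPKM. The largest of these small differences after scaling was that of POX_h09451, at -0.93 ± 0.16 (limma adjusted p = 0.0011). Its FPKM was 40.4, 48.7 and 62.6 in Δku70, 30.2, 36.6 and 36.4 in Δprmt3, and 25.8, 26.7 and 27.7 in ΔcxrA. The unscaled means were 34.4 in Δprmt3 and 26.8 in ΔcxrA, so part of the difference came from the scaling. POX_h09453 was listed at 0, 4.43 and 11.8 FPKM in Δku70 and at 0 in all 6 mutant libraries. It was the only gene of the stretch listed above 0 in Δku70 and at 0 in both mutants, and its value in Δku70 came from 2 of 3 libraries, again with replicate 1 the lowest.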

How the data were processed

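Mycelial RNA from 3 biological replicates of each of 3 strains was sequenced. The authors used SOAPnuke for quality control, HISAT2 for mapping, and RSEM with Bowtie2 for expression levels, and deposited FPKM per feature and library; the genome build is not given in the sources used here. Read counts were not analysed here. The fragment worth of low values differed at most 1.45-fold between libraries, so relative depth was similar, but no counting error was computed.

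FPKM was scaled by the median of ratios over features above 0 in all libraries (factors 0.822 to 1.28), a pseudocount of 0.1 was added, and limma 3.58.1 (R 4.3.3; lmFit and eBayes with trend, 1 mean per strain) was fitted to the 10578 features above 0 in any library. P-values were adjusted by Benjamini-Hochberg over all of them. A gene was called at an adjusted p under 0.05 and a log2 difference over 1. Limma was used because the values were FPKM, not counts. The fit was tested on simulated data in which each feature had the same spread in all 3 strains. In POX_h09439 to POX_h09441 the Δku70 libraries spread more than those of the mutants, so that test does not bear on their calls. Identifiers were matched to RefSeq for order and names only (9718 of 9822 annotated identifiers, and all 35 genes). The genes named are those of the run, 2 on each side, those called between the mutants, the annotated one and the 2 deleted genes; POX_h09413, POX_h09444, POX_h09451 and POX_h09453 were named after their values were seen. The genes, lists and tests were chosen with earlier results of these data known. Alternatives were other scalings, pseudocounts, a filter on low values, fewer libraries, annotated features only, a replicate block and leaving out each library. Figures were drawn with matplotlib 3.10.9.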

Additional observations from a re-analysis of the deposited data

How the results depend on the processing

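The run held 7 genes under all alternatives run for it. Without scaling, 4 genes of the stretch (8 with it) were lower in ΔcxrA than in Δprmt3 and 2 of the run (5 with it) passed the thresholds. Over all features, 3322 were then higher and 646 lower, against 1866 and 1291 with it. Quantile normalization gave 3 higher genes (5 otherwise), with 1433 higher and 1544 lower over all features. It also turned POX_h09434 from 1.11 to -0.66, and POX_h09433 went from -0.24 to 0.15, or to 0.33 without scaling. The cause was not tested. Leaving out 1 library at a time gave 3 to 6 called genes of the run, 10 to 15 of the stretch, and shares of the run of 0.0083% to 0.0165% in Δku70, 1.9% to 1.94% in Δprmt3 and 0.62% to 0.775% in ΔcxrA. As a share of annotated FPKM the run held 2.13% in Δprmt3 (1.91% of all). No pairing by replicate number was seen, as same-numbered libraries correlated at -0.069 to 0.059 in their deviations over 9 pairs. The labels do not say whether same-numbered cultures were handled together. With a replicate block, 11 genes of the stretch were called in place of 13, and 4 of the run in place of 5, since POX_h09437 and POX_h09443 no longer passed (limma adjusted p = 0.068 and 0.051). FPKM near 0 limits POX_h09434, POX_h09437, POX_h09443 and POX_h09452, and 3 libraries a strain limit every comparison.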
